A study of Mus musculus with 30 samples.

Results

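Cxcl9 and Cxcl10 encode 2 small secreted chemokines that interferons switch on in dendritic cells and macrophages. They were found as the rows of the deposited gene table that carry these symbols, 2 of its 25611 rows, and both were among the 14808 genes tested. The pair was chosen by measured values of these libraries, namely its rise in wild-type cells after 4 h of ovalbumin and its high level in knockout cells after 30 min of Jurkat cells. Values of those comparisons are therefore given as a description, with no test.

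The RNA came from mouse bone marrow cultures kept for 6 to 7 days in 200 ng/ml FLT3L, a growth factor under which marrow cells become dendritic cells. The genotypes were Rubcn KO and Rubcn WT, called KO and WT here. Rubcn encodes Rubicon, a protein needed to attach LC3 to phagosomes that hold engulfed cargo. Cells of each genotype had no treatment, or received OVA protein (ovalbumin, a model antigen) or apoptotic Jurkat cells. Treated cells were harvested after 30 min or after 4 h. For untreated cells the labels give no time, and the same untreated group of each genotype served both times. A change from untreated cells therefore had no known time-matched control. Jurkat is a line of human leukaemic T cells. With 3 libraries in each, there were 10 groups. The sources used here do not give the mouse strain, the Rubcn allele, the age of the mice or whether replicates came from separate mice, so p-values measure the spread between these libraries, which may be technical.

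As background, CXCL9 and CXCL10 bind the receptor CXCR3 on activated T cells and natural killer cells and draw them to sites of infection. CXCL9 is known mainly as a target of interferon gamma, while CXCL10 also responds strongly to type I interferon and to NF-kappa B and IRF3 downstream of pathogen sensing. In lymph nodes and tumours, dendritic cells that make these chemokines bring T cells into contact with antigen.

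Both genes lie on the minus strand of mouse chromosome 5 (mm10, per the deposited table): Cxcl9 (Entrez 17329) from 92321331 to 92328079 and Cxcl10 (Entrez 15945) from 92346639 to 92348889. Between 92359545 and 92363296 on the same strand stands Cxcl11, the third CXCR3 ligand of this cluster, which GENCODE lists as a polymorphic pseudogene in this build. The 250 bases before each start site are printed because both genes moved together with interferon and NF-kappa B genes below. They are RefSeq promoter windows of GRCm38.p6, the assembly behind mm10, read 5′ to 3′ on the gene's strand, with capitals on matches to the motifs of interferon and inflammatory factors. The Cxcl10 window is chr5:92348890-92349139 and the Cxcl9 window is chr5:92328080-92328329.
Cxcl10: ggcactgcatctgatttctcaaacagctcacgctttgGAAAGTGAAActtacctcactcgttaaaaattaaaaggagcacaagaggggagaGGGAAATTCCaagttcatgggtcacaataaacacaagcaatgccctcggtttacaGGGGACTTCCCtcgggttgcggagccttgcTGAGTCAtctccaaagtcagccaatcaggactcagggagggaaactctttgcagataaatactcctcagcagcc
Cxcl9: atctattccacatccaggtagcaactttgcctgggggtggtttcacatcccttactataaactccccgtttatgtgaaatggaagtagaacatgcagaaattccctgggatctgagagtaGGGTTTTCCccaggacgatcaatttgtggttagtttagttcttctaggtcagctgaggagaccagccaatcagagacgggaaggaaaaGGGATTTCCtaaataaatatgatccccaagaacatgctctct

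Both strands were searched. The Cxcl10 window held GAAAGTGAAA, a match to the interferon-stimulated response element GAAANNGAAA, starting 213 bases before the start site. Of the 32851 RefSeq promoter windows of this length, 2.98% hold a match. The same window held kappa B matches starting at 159, 104 and 103 bases before the start site, of which the last 2 overlap. NF-kappa B dimers bind this motif, which 7.25% of windows hold. A match to the AP-1 motif TGANTCA stood 74 bases before the start site, and 6.75% of windows hold one.

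The Cxcl9 window held no match to those 3 motifs. Neither window held the gamma-activated site TTCNNNGAA, which 7.02% of windows hold. A 9-letter kappa B form, GGGNNTTCC, was added after the windows were seen. It matched Cxcl9 at 130 and 42 bases before the start site and Cxcl10 at 103, and 4.98% of windows hold it. The AT-rich letters ATAAATA, also added afterwards, stood 30 bases before the Cxcl9 start and 20 before the Cxcl10 start, and 5.17% of windows hold them. A match says only that these letters are present in the window. A missing match says only that no stretch has these letters, and sites of other spelling were not searched.

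Total counts ran from 9.73 M in KO 30 min OVA replicate 3 to 51.6 M. Rubcn, the targeted gene, was lower in KO in every condition, with log2 fold changes from -0.44 untreated to -0.24 at 30 min, so the count over the whole gene checked the genotype labels only in part. The 6 general dendritic cell markers summed to between 19617 and 38142 CPM and each had counts in every group. T-lineage markers, written to follow the Jurkat cells, summed to 83.3 to 110.5 CPM without Jurkat cells and to 126.3 to 254.3 CPM with them. At 4 h of Jurkat cells they summed to 208.8 to 254.3 CPM in WT and to 176.8 to 203.6 CPM in KO. At 30 min the sums were 149.8 to 155.6 CPM in WT and 126.3 to 141.2 CPM in KO. The genotypes thus differed in this measure of the Jurkat cells, and its part in the KO against WT contrasts with Jurkat cells was not tested. The library KO 30 min Jurkat replicate 1 stands apart, as described below, and results of its group are given with and without it.

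In untreated cells both chemokines were scarcely expressed. Levels are CPM, counts scaled to a common library size with TMM factors. They rest on 28 to 53 counts per library for Cxcl9 and 51 to 114 for Cxcl10. Cxcl9 stood at 0.913, 1.14 and 1.04 CPM in the WT libraries and at 0.735, 0.580 and 0.842 CPM in the KO libraries. Cxcl10 stood at 2.32, 2.16 and 2.33 CPM in WT and at 2.16, 1.33 and 1.02 CPM in KO. The KO libraries were all below WT for Cxcl9, and the groups overlapped narrowly for Cxcl10. The log2 fold changes of KO against WT were -0.52 for Cxcl9 (95% interval -3.03 to 1.99, FDR 0.869) and -0.60 for Cxcl10 (-2.27 to 1.07, FDR 0.747). Here and below, FDR is the Benjamini-Hochberg adjusted p of edgeR's quasi-likelihood test over all tested genes, and a call is an FDR under 0.05. Neither gene was called in a contrast that called 9.97% of all genes. In bulk RNA, fewer cells that make a chemokine and less RNA per cell cannot be told apart.

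**Figure D1:**
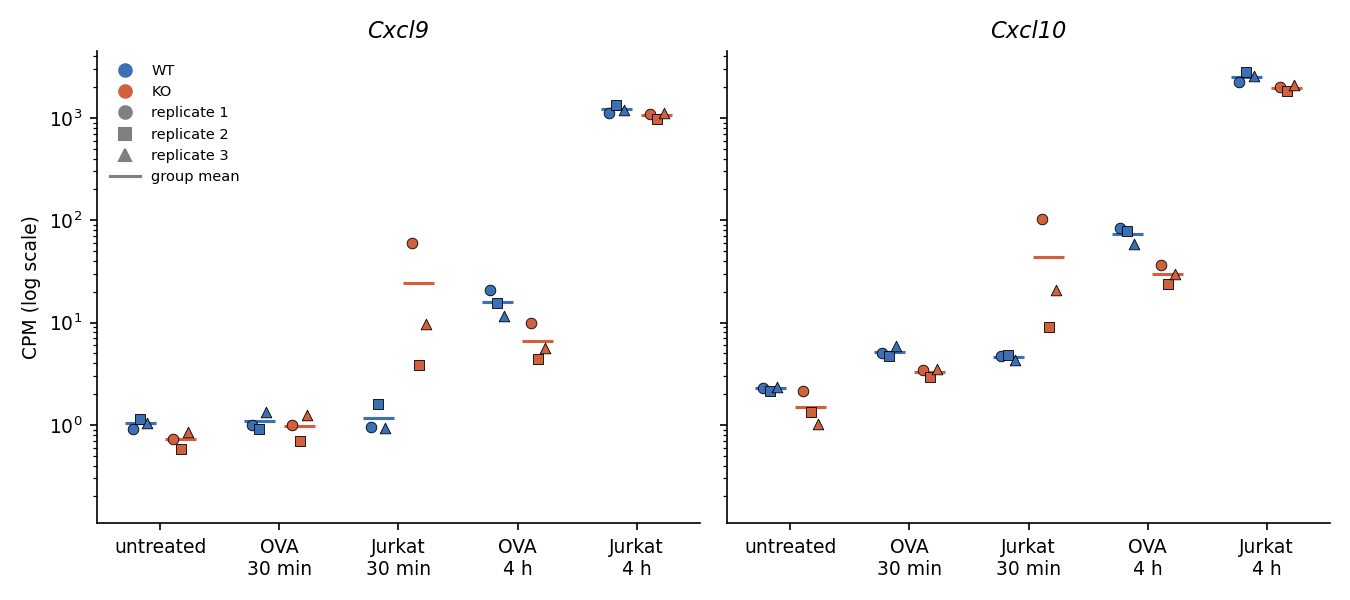
CPM of Cxcl9 and Cxcl10 (log axis) in each of the 30 libraries, by treatment and genotype; symbols mark the replicate number and bars the group means. The 6 libraries of 4 h Jurkat stand between 974 and 2802 CPM, and replicate 1 of KO 30 min Jurkat stands at 59.8 and 102.6 CPM, above the other 2 libraries of its group.

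Apoptotic Jurkat cells for 4 h brought both chemokines to their highest levels in each genotype. Cxcl9 rose to 1129, 1329 and 1192 CPM in WT and to 1103, 974 and 1112 CPM in KO. Cxcl10 rose to 2271, 2802 and 2556 CPM in WT and to 2007, 1850 and 2080 CPM in KO. No library of this treatment overlapped with any untreated library. Against untreated cells the log2 fold changes in WT were 10.20 for Cxcl9 (SE 0.651, edgeR FDR 1.2e-14) and 10.13 for Cxcl10 (SE 0.588, edgeR FDR 1.3e-15). In KO they were 10.52 for Cxcl9 (SE 0.673, edgeR FDR 1.4e-14) and 10.37 for Cxcl10 (SE 0.606, edgeR FDR 1.7e-15). This treatment moved most of the transcriptome: in WT it called 79.5% of genes, of which 38.9% of all were higher and 40.6% lower, and in KO 78.5%, with 37.5% higher and 41% lower. Scaling to total counts in place of TMM moved the median over all genes from -0.02 to -0.42 in WT and from -0.03 to -0.37 in KO. With that scaling the rise in WT was 9.79 for Cxcl9 and 9.72 for Cxcl10.

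Between the genotypes, the level at 4 h of Jurkat cells differed by less than the test could call. Every KO library was below every WT library for both genes, with KO at 0.874 of the WT mean for Cxcl9 and 0.778 for Cxcl10. The log2 fold changes were -0.19 for Cxcl9 (95% interval -0.97 to 0.58, FDR 0.758) and -0.36 for Cxcl10 (-1.11 to 0.39, FDR 0.523), and neither was called, in a contrast that called 22.9% of genes. In a fit of these 6 libraries alone Cxcl10 was called (log2 -0.34, edgeR FDR 0.00566) and Cxcl9 was not (-0.17, edgeR FDR 0.0776). The difference between the genotypes in the response to Jurkat cells was 0.32 for Cxcl9 and 0.24 for Cxcl10 on the log2 scale (edgeR FDR 0.929 and 0.925), where 4.26% of genes were called.

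Ovalbumin protein for 4 h raised both genes to a far lower level than Jurkat cells did. In WT, where this rise entered the choice of the pair, Cxcl9 stood at 20.7, 15.6 and 11.5 CPM and Cxcl10 at 84.8, 78.6 and 59.1 CPM. Those levels lie 3.93 and 5.03 log2 units above untreated WT cells, in a contrast that called 23.5% of genes. In KO, Cxcl9 rose to 9.96, 4.35 and 5.68 CPM (log2 3.24, SE 0.845, edgeR FDR 0.0107). Cxcl10 rose to 36.4, 23.8 and 30.0 CPM in KO (log2 4.33, SE 0.586, edgeR FDR 6.2e-06), in a contrast that called 11.6% of genes (5.94% higher, 5.69% lower). Without KO 4 h OVA replicate 1, the highest KO library, the rise of Cxcl9 was not called (log2 2.79, edgeR FDR 0.0785).

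After 4 h of ovalbumin the KO libraries were below every WT library for both genes. The KO mean was 0.418 of the WT mean for Cxcl9 and 0.405 for Cxcl10. Cxcl10 was called lower (log2 -1.30, SE 0.399, edgeR FDR 0.0295), while Cxcl9 missed the threshold with a difference of like size (log2 -1.21, SE 0.515, edgeR FDR 0.136). The contrast called 12.6% of genes, 6.22% higher and 6.35% lower. It shares its WT libraries with the rise that entered the choice of the pair, so it is not fully independent of that choice. The call for Cxcl10 was lost without any 1 of the 3 KO libraries or without WT replicate 1 or 2 (edgeR FDR 0.0544 to 0.127), and with KO 30 min Jurkat replicate 1 left out both genes were called (edgeR FDR 0.000222 for Cxcl9 and 7.9e-07 for Cxcl10). The high values of that library entered the choice of the pair, and leaving it out lowers the spread estimated for both genes. Calls made without it are therefore not independent of the choice.

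Markers of other cell types moved with the genotype in the same comparisons. All 4 basophil and mast cell markers were higher in KO untreated, at 4 h of ovalbumin and at 4 h of Jurkat cells (median log2 1.44, 1.399 and 1.54). Their summed level at 4 h of ovalbumin was 19.5 to 23.7 CPM in the WT libraries and 57.9 to 65.3 CPM in the KO libraries. Of 6 stromal markers 4, 4 and 5 were higher in KO, with sums at 4 h of ovalbumin of 581.1 to 662.0 CPM (WT) and 885.6 to 978.8 CPM (KO). Of all genes, 6%, 6.22% and 9.37% were higher in these contrasts.

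Of 7 plasmacytoid dendritic cell markers, the list of the cell type known for making type I interferon, 3, 3 and 5 were lower in KO and 1 higher, beside 3.97%, 6.35% and 13.5% of all genes lower. They summed to 2164 to 2172 CPM (WT) and 1859 to 1936 CPM (KO) at 4 h of ovalbumin, and to 2968 to 3445 CPM and 2429 to 2672 CPM at 4 h of Jurkat cells. Every marker of these 3 lists had counts in every group. The other lists follow in the same order of contrasts. Lower in KO were 0, 3 and 3 of 5 neutrophil markers. Of 10 monocyte and macrophage markers 1, 3 and 3 were lower and 1, 0 and 1 higher. Of 7 type 1 conventional dendritic cell markers 1, 2 and 3 were lower and 1 higher. Of 6 type 2 markers 2, 1 and 4 were higher and 1, 0 and 0 lower. Of the 6 general dendritic cell markers 1 was lower, and 0, 0 and 1 higher. Of 4 B cell markers 2, 2 and 1 were higher. Of 6 tested T and NK cell markers 0, 1 and 3 were lower and 0, 1 and 0 higher. That list shares Cd3d, Cd3e and Cd3g with the T-lineage markers written to follow the Jurkat cells. Cd3e stood at 0.0778 CPM in untreated WT and at 6.09 (WT) and 4.08 CPM (KO) after 4 h of Jurkat cells. There the list cannot tell T cells of the culture from the added ones. Of 22 tested T-lineage markers 5, 5 and 0 were higher and 0, 0 and 6 lower. The part of any of these cell types in the differences between the genotypes was not tested.

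The errors of both genes depended on 1 library of another group. The spread of a gene is estimated once over all 30 libraries, among them the 3 KO 30 min Jurkat libraries, which lie far apart for both chemokines. For Cxcl10 at 4 h of ovalbumin the SE was 0.399 with all libraries, 0.162 without KO 30 min Jurkat replicate 1 and 0.137 in the 6 compared libraries alone, while the log2 fold change stayed at -1.30, -1.30 and -1.29. For Cxcl9 the SE was 0.515, 0.220 and 0.245 in the same 3 fits. The fold changes of KO against WT in untreated cells, at 30 min of ovalbumin and at 4 h of Jurkat cells likewise moved by less than 0.1 between these fits.

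**Figure D2:**
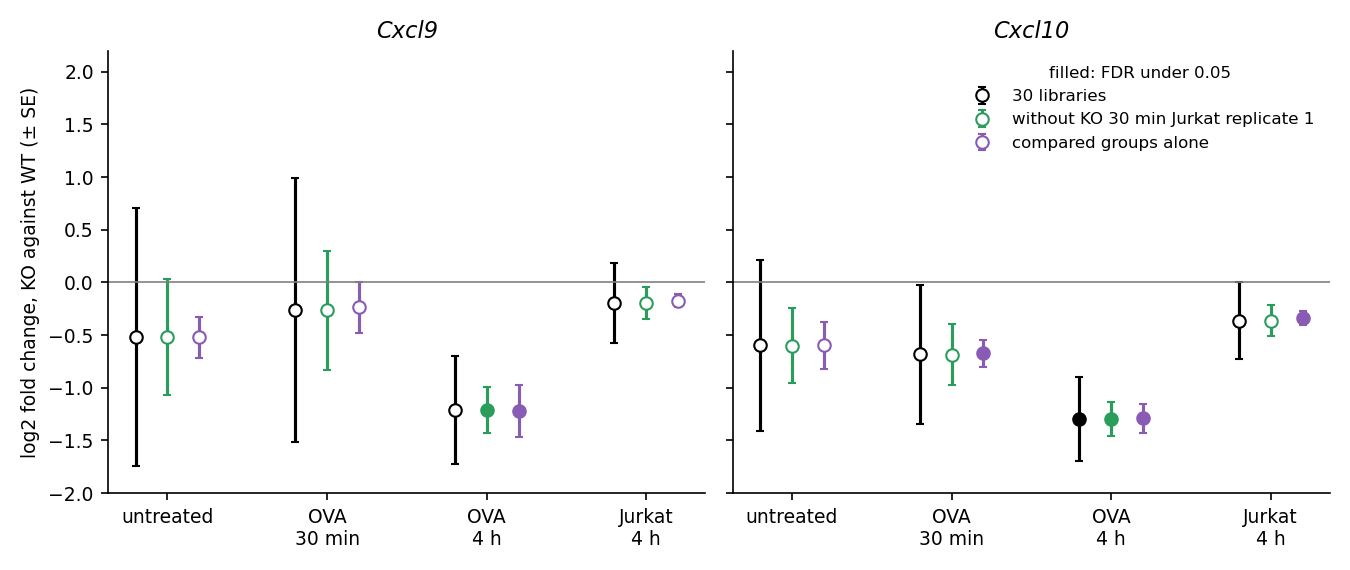
Log2 fold change of KO against WT (± SE) for Cxcl9 and Cxcl10 in untreated cells, 30 min OVA, 4 h OVA and 4 h Jurkat, in 3 fits: all 30 libraries, without KO 30 min Jurkat replicate 1, and the 6 compared libraries alone. Filled points are called at an FDR under 0.05; the points of a condition hardly move between fits, while the error bars shorten, from 0.399 to 0.162 and 0.137 for Cxcl10 at 4 h OVA.

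The difference between the genotypes in the 4 h ovalbumin response itself was not called. It was -0.69 for Cxcl9 (95% interval -3.47 to 2.09) and -0.70 for Cxcl10 (-2.58 to 1.18) on the log2 scale, with edgeR FDRs of 0.956 and 0.917, in a test that called 6 of all genes (0.0405%). Jurkat cells exceeded ovalbumin at 4 h by 6.26 for Cxcl9 (SE 0.493, edgeR FDR 1.9e-12) and 5.10 for Cxcl10 (SE 0.439, edgeR FDR 1.3e-11) in WT, where 77.5% of genes were called. In KO the same comparison gave 7.28 for Cxcl9 (SE 0.531, edgeR FDR 3.4e-13) and 6.04 for Cxcl10 (SE 0.463, edgeR FDR 1.1e-12), with 76.4% of genes called. The difference in response contains the WT rise that entered the choice of the pair. The WT comparison of Jurkat cells with ovalbumin shares its ovalbumin libraries with that rise. Neither is fully independent of the choice.

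At 30 min only Cxcl10 had moved away from the untreated libraries in WT. With ovalbumin it stood at 5.03, 4.69 and 5.90 CPM in WT, and with Jurkat cells at 4.70, 4.76 and 4.32 CPM, all above the highest untreated WT library (2.33 CPM). The log2 differences from untreated WT were 1.20 with ovalbumin (95% interval -0.14 to 2.53, edgeR FDR 0.273) and 1.02 with Jurkat cells (-0.35 to 2.38, edgeR FDR 0.274), neither called, in contrasts that called 10.7% and 28.7% of genes. Without KO 30 min Jurkat replicate 1 both were called, at 1.20 (edgeR FDR 0.00545) and 1.02 (edgeR FDR 0.00932). As at 4 h of ovalbumin, calls made without that library are not independent of the choice of the pair.

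In KO, Cxcl10 with 30 min of ovalbumin stood at 3.46, 2.93 and 3.47 CPM, above untreated KO and below every WT library given ovalbumin. The log2 difference from untreated KO was 1.11 (95% interval -0.55 to 2.77, edgeR FDR 0.541, 3.77% of genes called), and that from WT was -0.68 (-2.04 to 0.67, edgeR FDR 0.547, 12.4% of genes called). In fits of the compared libraries alone both were called (log2 1.12, edgeR FDR 0.0329, and log2 -0.67, edgeR FDR 0.00235). Replicate 3 of this KO group, the shallowest library, held 36 counts of Cxcl10.

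Cxcl9 stayed near its untreated level at 30 min in these groups. With ovalbumin it stood at 0.998, 0.918 and 1.32 CPM in WT and at 0.999, 0.700 and 1.25 CPM in KO, and with Jurkat cells at 0.963, 1.58 and 0.939 CPM in WT. The log2 differences from untreated cells were 0.06 and 0.15 in WT and 0.31 in KO, with edgeR FDRs from 0.939 to 0.992, and their 95% intervals reached past 2 in each direction. KO and WT overlapped with ovalbumin (log2 -0.26, edgeR FDR 0.933). The difference between the genotypes in the 30 min ovalbumin response was 0.26 for Cxcl9 and -0.09 for Cxcl10 (edgeR FDR 0.9999 for each). That test called 0 genes (0%) with edgeR and 0 with DESeq2, and 795 genes had an unadjusted edgeR p under 0.05.

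The 30 min Jurkat libraries of KO are described one by one. Cxcl9 stood at 59.8 CPM (2760 counts) in replicate 1, at 3.81 CPM (182 counts) in replicate 2 and at 9.62 CPM (443 counts) in replicate 3. Cxcl10 stood at 102.6 CPM (4733 counts), 8.99 CPM (430 counts) and 20.6 CPM (951 counts) in the same order. Replicate 1 was 6.22 times the higher of the other 2 for Cxcl9 and 4.97 times for Cxcl10, and all 3 KO libraries were above every WT library of this treatment. The fold change of KO against WT was 4.40 for Cxcl9 and 3.26 for Cxcl10 on the log2 scale with replicate 1, and 2.54 (SE 0.370) and 1.69 (SE 0.237) without it. Against untreated KO it was 5.07 and 4.88 with replicate 1 and 3.21 and 3.30 without it. Those contrasts called 9.25% and 17% of genes, and with both used for the choice nothing is read from these shares.

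The same library was high for a wider set of genes. At 5 CPM or more, 41 of 10173 genes (0.403%) stood at least 2-fold above both other libraries of the group, and no gene stood at least 2-fold below both. Among the other 29 libraries this count had a median of 0 and a highest value of 29, in WT 4 h OVA replicate 3, where Cxcl9 and Cxcl10 were the lowest of their group. The 10 largest excesses over the next library were those of Cxcl9 and Cxcl10, of Rsad2 (viperin, an antiviral enzyme, 5.23-fold), Oasl1 (4.88-fold), Ifit1 (4.74-fold), Ifit1bl1 (4.60-fold), Ifit3 (4.26-fold) and Ifit2 (4.22-fold), which are interferon-induced antiviral genes, and of the cytokine gene Il6 (4.17-fold) and the GTPase gene Iigp1 (4.15-fold). By list, 15 of 22 type I interferon targets were among the 41 genes, 6 of 16 gamma-type targets at 5 CPM or more, 4 of 15 early inflammatory genes, and none of the 14 signalling genes or of the 5 other CXC chemokines at that level. Cxcl3, just under it at 4.66 CPM (215 counts) in replicate 1, was 7.15 times the higher of the other 2 libraries. It is named here after its values were seen.

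The levels of these genes were set beside those of the 4 h treatments. All 41 were at least 2-fold higher at 4 h of Jurkat cells than in untreated KO cells, 34 were at least 2-fold higher at 4 h of ovalbumin than in untreated WT cells, and in 40 of them replicate 3 stood above replicate 2. The excess of replicate 1 over the mean of replicates 2 and 3 was 53.1 CPM for Cxcl9 and 87.7 CPM for Cxcl10, which is 4.99% and 4.43% of their mean at 4 h of Jurkat cells in KO. A set of 27 genes at 100 CPM or more at 4 h of Jurkat cells in KO, and at least 50-fold up there in both genotypes, was then formed, after these values were seen. Over that set the excess was a median of 4.65% of the 4 h level, with quartiles of 4.25% and 4.98% and a range from 1.46% (Tnf) to 5.53% (Mir155hg).

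The smaller step from replicate 2 to replicate 3 was a less even share of the 4 h level across the set. It was 0.547% for Cxcl9 and 0.589% for Cxcl10, with a median of 0.556% over the 27 genes. Its quartiles were 0.476% and 0.730%, and the range ran from 0.372% (Ifit3b) to 2.57% (Tnf). Measured against 4 h of ovalbumin in WT instead, the excess of replicate 1 spread from 28.8% to 507.3% of the level, with 332.8% for Cxcl9 and 118.3% for Cxcl10. Genes that fall at 4 h of Jurkat cells were also looked at. A set of 22 genes was taken by a 4 h level in KO of at most 10% of the untreated level. It was limited to genes at 20 CPM or more in untreated KO and in the mean of replicates 2 and 3. Over these 22 genes the median ratio between replicate 1 and the mean of the other 2 was 0.947, and 21 of them were below 1. A second set took 2519 genes at 20 CPM or more in the mean of replicates 2 and 3. Their 4 h and untreated levels in KO were each required to lie within 1.2-fold of that mean. The median ratio of this second set was 0.987. Of these 2519 genes, 1537 were also below 1. Depth was 43.8 M, 45.4 M and 43.8 M counts in the 3 libraries, and T-lineage markers summed to 141.1, 141.2 and 126.3 CPM. What gave replicate 1 these levels was not tested.

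**Figure D3:**
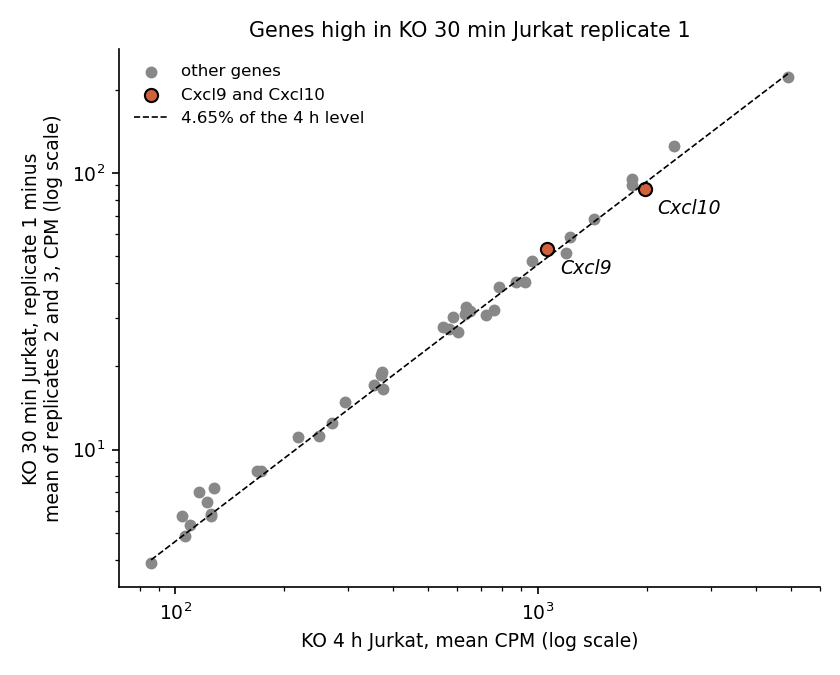
For the 41 genes at least 2-fold above both other KO 30 min Jurkat libraries, the excess of replicate 1 over the mean of replicates 2 and 3 (CPM, log axis) against the mean level at 4 h of Jurkat cells in KO (CPM, log axis). The dashed line marks 4.65% of the 4 h level, the median of the 27-gene set, and Cxcl9 (4.99%) and Cxcl10 (4.43%) lie close to it. The plotted genes were picked for high values in replicate 1, so their closeness to the line is partly set by that choice. Genes of the 27-gene set with lower shares, such as Tnf (1.46%) and Cxcl2 (2.57%), are not drawn.

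Ordered by group mean, both genes ran from untreated KO at the bottom to 4 h Jurkat in WT at the top. For Cxcl9 the 5 lowest groups, the untreated ones, both of 30 min ovalbumin and WT 30 min Jurkat, lay between 0.719 and 1.16 CPM and each overlapped with its neighbour. KO 4 h OVA (6.66 ± 2.93 CPM, SD, n = 3), WT 4 h OVA (16.0 ± 4.62 CPM) and KO 30 min Jurkat (24.4 ± 30.8 CPM) followed, and KO 30 min Jurkat, from 3.81 to 59.8 CPM, overlapped with both 4 h ovalbumin groups. For Cxcl10 the step from untreated WT (2.27 ± 0.0954 CPM) to KO 30 min OVA (3.29 ± 0.312 CPM) was already free of overlap. KO 30 min Jurkat (44.1 ± 51.0 CPM) overlapped with both 4 h ovalbumin groups, whose means were 30.0 ± 6.30 CPM for KO and 74.2 ± 13.4 CPM for WT.

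The balance between the chemokines differed by treatment. Per kilobase of transcript, with 2889 bases for Cxcl9 and 1094 for Cxcl10, the level of Cxcl10 was above that of Cxcl9 in every library, by 3.21 to 14.4 times. All GENCODE exons of each gene together span 3016 bases for Cxcl9 and 2252 for Cxcl10. The annotation used for counting is not given, so the size of the ratio depends on the lengths taken. The order of the groups does not. After 4 h of ovalbumin the ratio was 12.6 ± 1.52 in WT and 12.7 ± 2.63 in KO (SD, n = 3), and after 4 h of Jurkat cells it was 5.51 ± 0.180 and 4.92 ± 0.108. The 2 treatments did not overlap in either genotype. At 4 h of Jurkat cells the KO libraries (4.80, 5.02 and 4.94) were all below the WT libraries (5.31, 5.57 and 5.66).

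At 30 min of Jurkat cells the ratio per kilobase was 12.9, 7.96 and 12.1 in WT and 4.53, 6.24 and 5.67 in KO, with replicate 1 the lowest of KO. With 30 min of ovalbumin it was 12.9 ± 0.932 in WT and 9.18 ± 1.87 in KO. Untreated cells had ratios of 5.86 ± 0.859 in WT and 5.67 ± 2.30 in KO, which rest on at most 53 counts of Cxcl9 in a library. No test was run on these ratios.

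**Figure D4:**
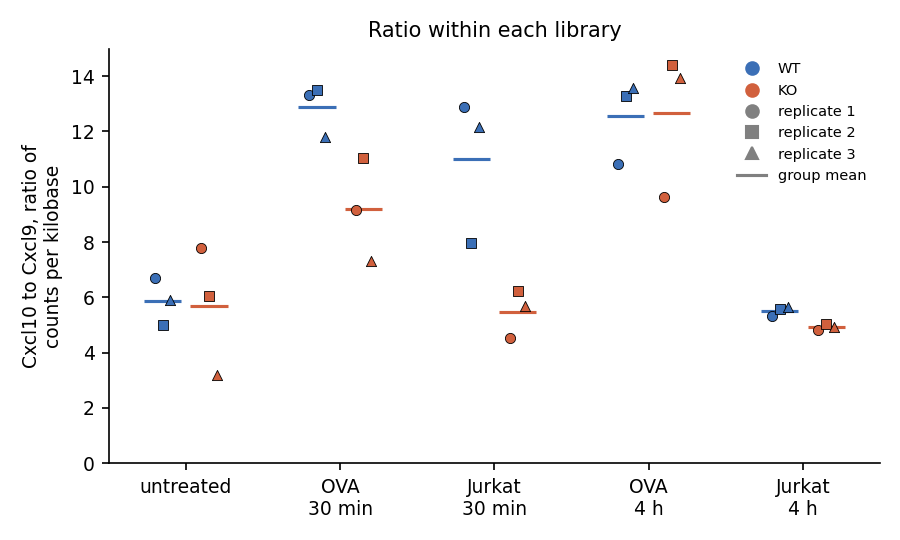
Ratio of Cxcl10 to Cxcl9 in counts per kilobase of transcript within each of the 30 libraries, by treatment and genotype; bars are group means. The 4 h Jurkat libraries lie between 4.80 and 5.66, below all 4 h ovalbumin libraries (9.64 to 14.4).

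Of the other parts of the CXCR3 axis, the third ligand followed the pair. Cxcl11 had 0 counts in the 3 untreated KO libraries, which allows up to 0.0206 CPM over the group, and 9 counts over untreated WT. After 4 h of Jurkat cells its mean was 72.2 ± 9.71 CPM (WT) and 55.4 ± 4.30 CPM (KO), with KO against WT not called (log2 -0.38, edgeR FDR 0.142). In the KO 30 min Jurkat libraries it held 125, 7 and 28 counts, high in replicate 1 as the pair was. Its exons share 1582 bases with an overlapping gene model, so its count is uncertain. Cxcr3, the receptor, fell after 4 h of Jurkat cells from 51.9 to 8.62 CPM in WT (log2 -2.59, edgeR FDR 4.6e-22) and from 54.5 to 11.1 CPM in KO (log2 -2.30, edgeR FDR 2.7e-21). Dpp4, the peptidase that trims and inactivates these chemokines, was lower in KO untreated (log2 -0.26, edgeR FDR 0.0011), at 4 h of ovalbumin (-0.19, edgeR FDR 0.011) and at 4 h of Jurkat cells (-0.29, edgeR FDR 0.00016).

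Neighbouring genes on chromosome 5 were measured beside the cluster. Within 250 kb, 9 other genes were tested, and after 4 h of Jurkat cells in WT Cxcl11 (log2 10.07) and Art3 (5.03, at 0.558 CPM) exceeded a log2 of 2, while the other 7 lay between -1.13 (Naaa) and 1.003 (Scarb2). Art3 runs through Cxcl10 on the opposite strand and shares 133 exon bases with it. Whether counting used strand is not given in the sources used here, nor how reads in the shared bases were counted. Art3 held under 1 CPM in every group, which does not settle this.

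Interferon genes, the upstream inputs, were counted mainly with Jurkat cells. Of 14 genes of interferons and their receptors, 12 were tested. Ifnb1 had 0 counts in all 6 untreated libraries, which allows up to 0.0206 CPM in KO and 0.0214 CPM in WT over the group. After 4 h of ovalbumin it had 6, 11 and 4 counts in WT and 4, 1 and 0 in KO. After 4 h of Jurkat cells it reached 369, 529 and 403 counts in WT and 156, 126 and 135 in KO (KO against WT log2 -1.77, edgeR FDR 3.9e-06). Ifna2 and Ifna4 were lower in KO by -1.77 and -1.94 (edgeR FDR 1.1e-05 and 0.00011). In all, 9 of the 12 were called lower and 1 higher (Ifngr1, log2 0.15) in KO at 4 h of Jurkat cells, where 13.5% of all genes were called lower and 9.37% higher. In KO 30 min Jurkat, Ifnb1 had 11, 1 and 3 counts, so that replicate 1 was again the highest.

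Interferon gamma, the classical inducer of Cxcl9, was hardly counted. Ifng had at most 9 counts in any library, with 9, 5 and 8 counts in KO and 6, 2 and 8 counts in WT after 4 h of Jurkat cells, and 0 in the untreated libraries of both genotypes (up to 0.0206 and 0.0214 CPM). Its receptor gene Ifngr1 fell in WT from 355.5 to 67.8 CPM and in KO from 385.6 to 75.3 CPM after 4 h of Jurkat cells (log2 -2.39 and -2.36, edgeR FDR 2.8e-28 and 4.6e-28), while Ifnar1, of the type I receptor, rose by 0.45 and 0.35.

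Among 14 genes that relay these signals, 12 rose and 2 fell after 4 h of Jurkat cells in each genotype, where 79.5% (WT) and 78.5% (KO) of all genes were called. Irf7, the factor that amplifies type I interferon, rose by 4.01 in WT and 4.61 in KO, and Irf1, which drives Cxcl9 and Cxcl10 directly, by 2.14 and 2.17 on the log2 scale. In untreated cells 5 of the 14 were lower in KO and none higher, among them Irf7 (-1.08, edgeR FDR 1.3e-05), beside 3.97% of all genes lower and 6% higher. At 4 h of ovalbumin 7 were lower, among them Irf1 (-0.26) and Jak2 (-0.22), beside 6.35% of all genes. At 4 h of Jurkat cells 6 were lower, among them Irf7 (-0.48) and Irf1 (-0.21), beside 13.5% of all genes. Without KO or without WT 4 h Jurkat replicate 2 that count was 2. With total-count scaling 3 were lower and 1 higher there, and in the compared libraries alone also 3 and 1.

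Feedback inhibitors of the pathway rose with the chemokines. All 7 rose after 4 h of Jurkat cells in each genotype, as did 38.9% of all genes in WT and 37.5% in KO. Socs1 rose by 4.72 in WT and 4.83 in KO and Usp18, which blocks the type I receptor, by 4.47 and 5.26 on the log2 scale. KO held less Usp18 than WT untreated (-1.14, edgeR FDR 0.00071) and at 4 h of ovalbumin (-1.17, edgeR FDR 0.00021), and at 4 h of ovalbumin also less Socs1 (-0.45), Nfkbia (-0.44) and Tnfaip3 (-0.51). Socs3 went the other way untreated (0.60, edgeR FDR 4.9e-05).

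Of 22 type I interferon targets, 20 were lower in KO untreated, 22 at 4 h of ovalbumin and 13 at 4 h of Jurkat cells, and none was higher, with median log2 fold changes of -1.25, -1.22 and -0.55 against -0.01 or nearer to 0 over all genes. Of all genes, 3.97%, 6.35% and 13.5% were lower in these contrasts. Ifi44 led in each condition, at -3.13, -2.78 and -1.62. The 2 not called in untreated cells were Ifit1 and Rsad2. The 13 at 4 h of Jurkat cells became 22 in the compared libraries alone, 22 without KO 30 min Jurkat replicate 1 and 8 without KO 4 h Jurkat replicate 2. The basophil, stromal and plasmacytoid markers given above moved in these same contrasts.

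Of 20 gamma-type targets, 9 were lower in KO untreated, 13 at 4 h of ovalbumin and 16 at 4 h of Jurkat cells, and none was higher, with medians of -0.48, -0.66 and -0.44, beside the same 3.97%, 6.35% and 13.5% of all genes lower. The 16 became 8 without KO 4 h Jurkat replicate 2 and 9 without WT 4 h Jurkat replicate 2. Gbp6 (-1.97, -1.90 and -0.83), Gbp4 (-0.54, -0.74 and -0.56) and Irgm1 (-0.57, -0.65 and -0.31) were among them. The 4 not called at 4 h of Jurkat cells were Irgm2, Cd274, Ciita and Gbp5. Ovalbumin for 4 h raised 11 of these 20 and all 22 type I targets in KO, where 5.94% of all genes were called higher.

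The other CXC chemokines include the neutrophil attractants Cxcl1, Cxcl2 and Cxcl3. Of 9 tested, none differed untreated and 2 were lower in KO at 4 h of ovalbumin (Cxcl2 at -0.82 and Cxcl16, a CXCR6 ligand, at -0.36), beside 6.35% of all genes. At 4 h of Jurkat cells 3 were higher in KO: Cxcl1 (0.81), Cxcl3 (0.82) and Cxcl12 (0.89), beside 9.37% of all genes. Without KO 4 h Jurkat replicate 2 that count was 1. Of 16 early inflammatory genes 1 was lower and 2 higher untreated, 8 were lower at 4 h of ovalbumin, among them Ccl5 (-0.71), Ccl4 (-1.37), Tnf (-0.61) and Cd83 (-0.45), and 5 were lower and 1 higher at 4 h of Jurkat cells. The shares of all genes lower were 3.97%, 6.35% and 13.5%, and those higher 6%, 6.22% and 9.37%.

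**Figure D5:**
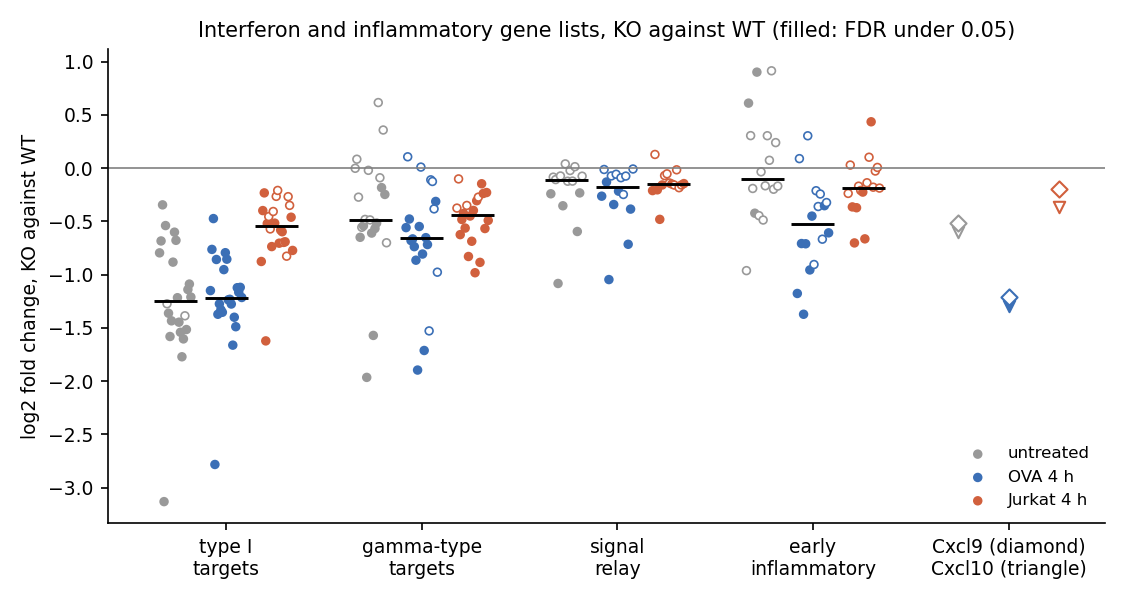
Log2 fold change of KO against WT for each gene of 4 lists and for Cxcl9 and Cxcl10 in untreated cells, 4 h OVA and 4 h Jurkat; filled points are called at an FDR under 0.05 and bars are list medians. The type I targets have medians of -1.25, -1.22 and -0.55, and of the chemokine pair only Cxcl10 at 4 h OVA is filled (-1.30).

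Genes whose levels followed the pair most closely were sought over all 30 libraries among 10723 genes with a group mean of at least 5 CPM. By Pearson's correlation of log2(CPM + 1), Cxcl9 was closest to Cd40 (0.990), the co-stimulatory receptor gene, then to Gbp5 (0.987), Tnfsf15 (0.986), Ifit1bl1 (0.986) and Bcl2a1d (0.984). Cxcl10 was closest to Rsad2 (0.990), Clec4e (0.984), Ifit1 (0.984), C3 (0.983) and Cd40 (0.981). Between themselves the 2 chemokines had a correlation of 0.988. The 6 libraries of 4 h Jurkat lie far from the rest in all of them.

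Without those 6 libraries the chemokines had a correlation of 0.953 with each other over 24 libraries. Cxcl9 was then closest to Cxcl3 (0.952), Cxcl11 (0.949) and Serpina3g (0.940), and Cxcl10 to Cdkn1a (0.963), Cd40 (0.958) and Bcl2a1d (0.955). Without the KO 30 min Jurkat group instead, over 27 libraries, Cxcl9 was closest to Cd40 (0.998), Tnip1 (0.998) and Bcl2a1d (0.997), and Cxcl10 to C3 (0.996), Ccl9 (0.994) and Clec4a1 (0.993), with Rsad2 and Ifit1 no longer among the first 5. The libraries share their treatments and KO 30 min Jurkat replicate 1, so the values describe these libraries only.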

How the data were processed

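The authors deposited a table of raw counts per gene, whole numbers for 30 libraries and 25611 rows. Per the submitters' processing notes, STAR 2.5, Subread, featureCounts 1.5.0-p1 and DESeq2 were named, with build mm10. For annotation and strand setting: not given in the sources used here. The deposited counts were tested with edgeR 4.0.16 (R 4.3.3, limma 3.58.1): 1 quasi-likelihood model of 10 group means, TMM scaling and filterByExpr, which kept 14808 genes, with Benjamini-Hochberg adjustment over all of them. Each SE was taken as the size of the log2 fold change over the root of its F statistic. The code was tested on simulated data. DESeq2 1.42.0, other scalings and filters, a replicate block, the compared groups alone and leaving out libraries were alternatives.

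Members and lists were chosen with earlier results of these data known. Genes of the CXCR3 axis, of interferon inputs, relay and brakes could be named whatever their result. From other lists up to 4 called genes per contrast were named by smallest p, and all those not called where 5 or fewer. Likeness took the highest correlations, and the library that stands apart its 10 largest folds. Genes with Gm or Rik names were passed over.

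Replicate numbers come from the labels. Same-numbered libraries deviated together, each pair's correlation over 0.1, for KO against WT untreated (0.485, 0.368 and 0.256) and in WT for 30 min Jurkat (0.344, 0.172 and 0.347) and 4 h OVA (0.412, 0.145 and 0.287) against untreated. Other contrasts did not meet this. In the paired contrasts that were tested, the block changed no call of either member.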

Additional observations from a re-analysis of the deposited data

How the results depend on the processing

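Over the 15 tested contrasts of both genes, 547 alternative values kept their direction and side of the threshold, 17 passed it, 6 lost it and 6 turned sign. Fitting the compared groups alone called Cxcl10 in KO against WT at 30 min OVA (-0.67) and 4 h Jurkat (-0.34), in 30 min OVA (1.20) and 30 min Jurkat (1.01) against untreated WT and in 30 min OVA against untreated KO (1.115), and Cxcl9 in KO against WT at 4 h OVA (-1.22). Leaving out the KO 30 min Jurkat group, chosen after seeing the data, called the same 6, at -0.68, -0.36, 1.20, 1.02, 1.11 and -1.21. Cxcl9 at 4 h OVA was also called with a replicate block within genotype (-1.37, edgeR FDR 0.0323). With a plain replicate block its difference was -1.27 (FDR 0.0763) and that of Cxcl10 -1.32 (FDR 0.0180); these libraries share only a number, with correlations of -0.235, -0.200 and -0.153.

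Leaving out 1 library at a time, KO against WT at 4 h OVA ran from -1.46 to -1.16 for Cxcl10 and from -1.66 to -0.98 for Cxcl9. Against untreated WT, 30 min OVA ran from 1.10 to 1.27 for Cxcl10 and from -0.11 to 0.16 for Cxcl9, with -0.02 without untreated WT replicate 1. In WT 30 min Jurkat ran from 0.98 to 1.05 for Cxcl10 and from -0.12 to 0.28 for Cxcl9. The KO rise of Cxcl9 at 4 h OVA ran from 2.79 to 3.46. The difference in 30 min OVA response of Cxcl10 ran from -0.31 to 0.27, with 0.01 without KO 30 min OVA replicate 2 or WT 30 min OVA replicate 3. The cause of these changes was not tested.

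Counts of called genes moved by over 1.5 times in the compared groups alone: KO against WT at 30 min Jurkat from 1370 to 891, 30 min OVA against untreated from 1578 to 833 in WT and from 558 to 246 in KO, 30 min Jurkat in KO from 2514 to 1460, and the difference in 4 h Jurkat response from 631 to 337. The difference in 4 h OVA response went from 6 to 25 genes with DESeq2. In KO against WT at 4 h Jurkat, gamma-type targets called lower went from 16 to 10 with DESeq2, interferon genes from 9 to 4 with a minimum of 5 CPM in 3 libraries, brakes from 3 to 1 and early inflammatory genes from 5 to 3 with total counts (8 in the compared groups alone), and other CXC chemokines called higher from 3 to 5 with total counts. The minimum of 5 CPM leaves interferon genes such as Ifna1 and Ifnl2 untested, so fewer of them could be called. Early inflammatory genes called lower untreated went from 1 to 4 in the compared groups alone. Without 1 library, all genes called in KO against WT went from 1477 to 898 untreated (KO replicate 1) or 984 (WT replicate 2), from 1834 to 718 at 30 min OVA (KO replicate 2) or 1075 (WT replicate 2), from 1861 to 1172 at 4 h OVA (KO replicate 1) or 1226 (WT replicate 1), and from 3392 to 2189 at 4 h Jurkat (WT replicate 2). Against untreated KO, 30 min OVA went from 558 to as low as 173 (KO 30 min OVA replicate 2) and 4 h OVA from 1722 to 1105 (KO 4 h OVA replicate 1). Against untreated WT, 30 min OVA went from 1578 to as low as 903 (WT 30 min OVA replicate 1).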
